A study of Mus musculus with 4 samples.

Results

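The GDNF family consists of 4 secreted ligands, GDNF (Gdnf), neurturin (Nrtn), artemin (Artn) and persephin (Pspn), together with the receptors that bind them. Its genes were examined in cells sorted from the mouse submandibular gland. The 10 genes were chosen by name: the 4 ligands, the receptor tyrosine kinase gene Ret, the co-receptor genes Gfra1, Gfra2, Gfra3 and Gfra4, and Ncam1, an adhesion molecule that can also bind GDNF. The array carries 14 probes for these 10 genes, out of 55681 probes for 36282 gene names. The groups were stem cells (n = 2 arrays) and non-stem cell epithelia (n = 2 arrays), both freshly sorted by flow cytometry from C57BL/6 mice aged 8 to 10 weeks. The labels name no transgene, treatment or sort marker, and do not say whether replicates came from separate animals or sorts. The p-values therefore cover only variation among these 4 arrays, and that may be technical. The comparison asks which of these genes differ between the stem cells of this salivary gland and its other epithelial cells.

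In this family a ligand binds a co-receptor held in the outer membrane by a lipid anchor, and the pair then engages RET, the kinase that signals into the cell. GDNF pairs mainly with GFRA1, neurturin with GFRA2, artemin with GFRA3 and persephin with GFRA4. GDNF can also act through NCAM1 and GFRA1 without RET. In the salivary gland neurturin is best known for supporting the parasympathetic nerves of the gland, and GDNF signalling is a classic driver of branching in the developing kidney.

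A value below is either the background-corrected spot signal in linear scanner units, given with the error that the scanner software assigned to that spot, or a log2 signal relative to the 75th percentile of all spots on the same array. A spot was detected where the software marked it as well above background. The 75th percentile was 34.0 and 48.9 on the stem cell arrays against 84.2 and 71.1 on the non-stem arrays, so an equal spot signal gives a higher scaled value in stem cells. No spot was saturated. On each array 35.7% to 42.3% of spots were detected. The labelled cell types were checked against markers. Krt14 and Krt5, keratins of basal cells, rose by 3.17 ± 0.16 and 3.15 ± 0.19 (SE) on the log2 scale in stem cells, and the acinar water channel gene Aqp5 fell by 3.19 ± 0.16 (SE). Of the other basal and myoepithelial markers, Krt17 rose by 3.79 ± 0.16. Trp63 (0.56 ± 0.17), Acta2 (-0.11 ± 0.16), Myh11 (-0.21 ± 0.18) and Cnn1 (-0.36 ± 0.17) did not pass the test described below. The basal and myoepithelial markers thus did not rise as a whole.

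Of the 14 probes, 6 were detected on at least 2 arrays and entered the test, each for a different gene. Gdnf and Artn were detected in both stem cell replicates but in no replicate of the non-stem cell epithelia. Nrtn, Ret, Gfra3 and 1 of the 3 Gfra4 probes were detected on all 4 arrays. Pspn, Gfra1, Gfra2 and Ncam1 were detected on no array. Gdnf, Artn and Gfra3 passed the threshold of 0.05 on the adjusted p (limma, Benjamini-Hochberg over all genes tested), all 3 higher in stem cells, and no member was lower. Across the 17362 genes tested, 31.1% passed in either direction, 14.3% as higher and 16.7% as lower. Gdnf and Artn entered the test only through the stem cell arrays, where they were brighter, so the count of 3 among 6 carries no weight as a statement on the family. The groups did not overlap in 6 of 6 tested members, against 71.1% of all genes tested.

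**Figure D1:**
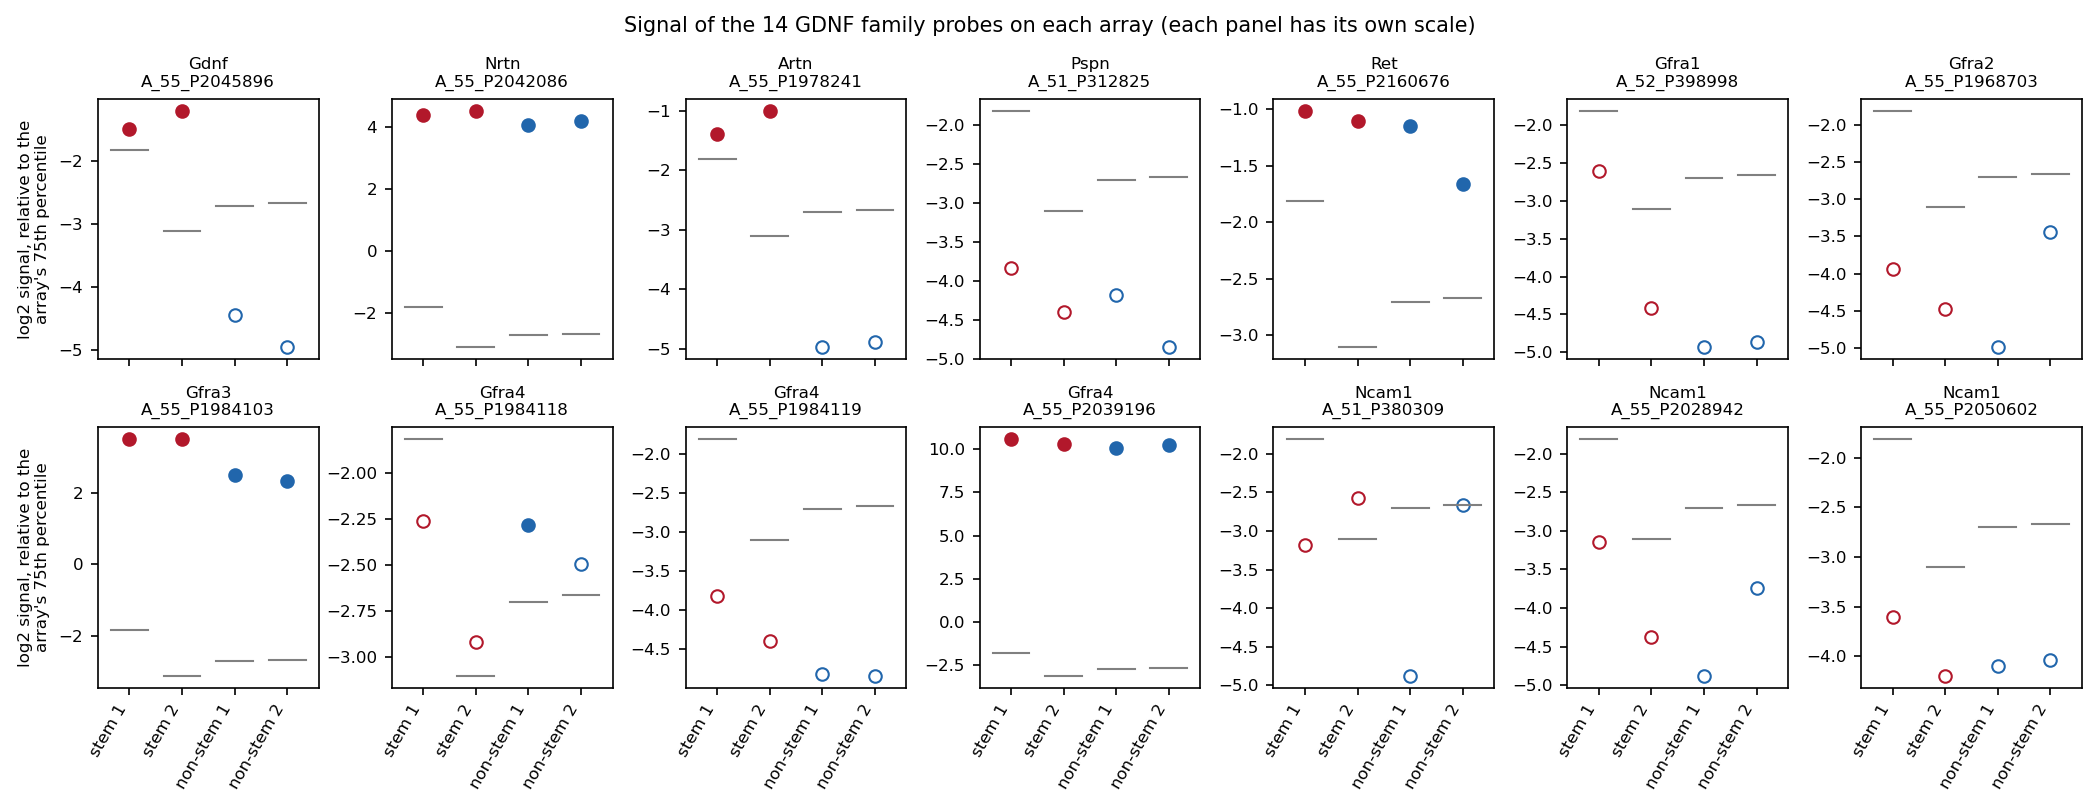
Signal of each of the 14 probes on the 4 arrays, as log2 relative to the 75th percentile of the array, with red circles for stem cells and blue circles for non-stem cell epithelia. Filled circles were well above background, open circles were not, and grey bars mark the lowest signal well above background on each array. Gdnf and Artn are filled on both stem cell arrays and open on both others, while Pspn, Gfra1, Gfra2 and Ncam1 are open throughout.

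The 3 Gfra4 probes gave different accounts of 1 gene, and their sequences are shown because the value of Gfra4 turns on which of them is read. They target the transcript NM_020014 at bases 376, 694 and 804, in the order printed, and each is 60 bases long. In mm9, the build of the files, they lie on the minus strand at chr2:130867132-130867191, chr2:130866140-130866199 and chr2:130865957-130866016. Capitals mark each CG dinucleotide.
A_55_P2039196: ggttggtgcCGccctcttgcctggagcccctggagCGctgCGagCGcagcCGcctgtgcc
A_55_P1984119: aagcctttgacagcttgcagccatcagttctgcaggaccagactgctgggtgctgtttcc
A_55_P1984118: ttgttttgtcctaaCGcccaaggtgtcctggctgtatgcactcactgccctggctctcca
The first has a GC content of 75% and 5 CG dinucleotides. The other two both have a GC content of 55%, with 0 and 1 CG dinucleotides.

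The first Gfra4 probe had spot signals of 52019 and 60655 for stem cells, with 89812 and 86147 for non-stem cell epithelia. The second was detected on no array, with signals of 2.41, 2.32, 2.99 and 2.49 in the same order. The third had signals of 7.10, 6.47, 17.3 and 12.6 and was detected only on non-stem cell epithelia replicate 1. The probes therefore disagree on whether Gfra4, the co-receptor gene for persephin, was detected in these cells at all. By its brightest probe Gfra4 had a log2 difference of 0.28 ± 0.18 (SE, adjusted p = 0.29), with a 95% interval of -0.18 to 0.73. An intensity trend with robust variances brought this difference past the threshold (adjusted p = 0.030), and normexp background correction turned it to -0.21 (adjusted p = 0.26). What the first probe binds was not tested.

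Gdnf is the ligand for which the family is named. Its probe lies at chr15:7787474-7787533 (mm9, plus strand) and starts at base 3407 of the transcript NM_010275. The spot signal was 12.1 ± 2.5 and 21.3 ± 3.0 in stem cells, whereas the non-stem cell epithelia gave 3.90 ± 2.61 and 2.30 ± 2.31 (each ± the software's error of the spot). Both stem cell signals exceeded both others, and neither non-stem spot was detected. Relative to the array's 75th percentile the stem cell replicates had log2 signals of -1.50 and -1.20 and the non-stem ones -4.43 and -4.95. The fitted log2 difference was 3.34 ± 0.23 (SE, adjusted p = 0.00076 in limma), with undetected spots on 1 side. Its SE and p therefore do not measure the spread of Gdnf in non-stem cell epithelia. Set against the lowest detected signal of the non-stem arrays, the stem cell level of Gdnf was 2.52-fold higher. Undetected spots can lie above that signal, so this bound is not strict. That bound was 2.16 with quantile normalization. On the spike-in scale described below it was -0.91 on the log2 scale and gave no fold. With normexp background correction, which adds an offset to dim signals, the log2 difference was 0.81 (adjusted p = 0.00050).

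Artn, the ligand of GFRA3, followed the same course. Its probe lies at chr4:117598825-117598884 (mm9, minus strand) and starts at base 2059 of NM_009711. The spot signal was 13.0 ± 2.6 and 24.5 ± 3.35 for stem cells, while non-stem cell epithelia gave 2.69 ± 2.70 and 2.41 ± 2.42. As with Gdnf, the stem cell replicate 2 spot was the brighter of its group and the groups did not overlap. Neither non-stem spot was detected, and neither signal exceeded its own error. The fitted log2 difference was 3.73 ± 0.19 (SE, adjusted p = 0.00033 in limma). Its SE and p therefore do not measure the spread of Artn in non-stem cell epithelia. The bound, again not strict, was 2.81-fold, or 2.42 with quantile normalization. With normexp the log2 difference was 0.78 (adjusted p = 0.00084). Each of these genes has 1 spot per array. On these arrays, probes spotted at least 8 times with a signal of 10 to 40 had a median SD of 0.21 to 0.25 between spots on the log2 scale. The 2 stem cell values of Gdnf lay 0.30 apart and those of Artn 0.39 apart.

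Nrtn, the ligand of GFRA2, was detected on all 4 arrays. Its probe lies at chr17:56890748-56890807 (mm9, minus strand). The spot signal was 712 ± 71 and 1133 ± 113 in stem cells, against 1420 ± 142 and 1307 ± 131 in non-stem cell epithelia. Before scaling, both stem cell signals lay below both others. After the shift by the 75th percentile the order turned, with stem cell log2 signals of 4.39 and 4.54 above the non-stem ones of 4.08 and 4.20. The log2 difference of 0.32 ± 0.16 (SE) did not pass (adjusted p = 0.17), and its 95% interval ran from -0.07 to 0.72. With normexp it was -0.17 (adjusted p = 0.43 in limma), and on the spike-in scale described below it was -1.93. Quantile normalization gave 0.41 and the percentile over detected probes 0.46, so the direction for Nrtn differed between settings. Which step turned it was not tested.

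Pspn, the ligand of GFRA4, was detected on no array, with signals of 2.38, 2.31, 4.65 and 2.46 on stem cells replicates 1 and 2 and non-stem cell epithelia replicates 1 and 2. The dimmest detected spot had a signal of 9.67 in stem cells replicate 1 but 5.68 in replicate 2. For non-stem cell epithelia it was 12.9 in replicate 1 but 11.2 in replicate 2. A lower level of Pspn was therefore not detectable. Of the 4 ligands, 1 was thus detected in both groups, 2 in stem cells only and 1 in neither. The same dim signal could, however, count as detected in stem cells only. In stem cells replicate 1, Gdnf (12.1) lay below the limit of 12.9 and Artn (13.0) was level with it. In replicate 2 both lay above it (21.3 and 24.5). Their non-stem signals, 3.90 or less, lay below all of these limits.

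**Figure D2:**
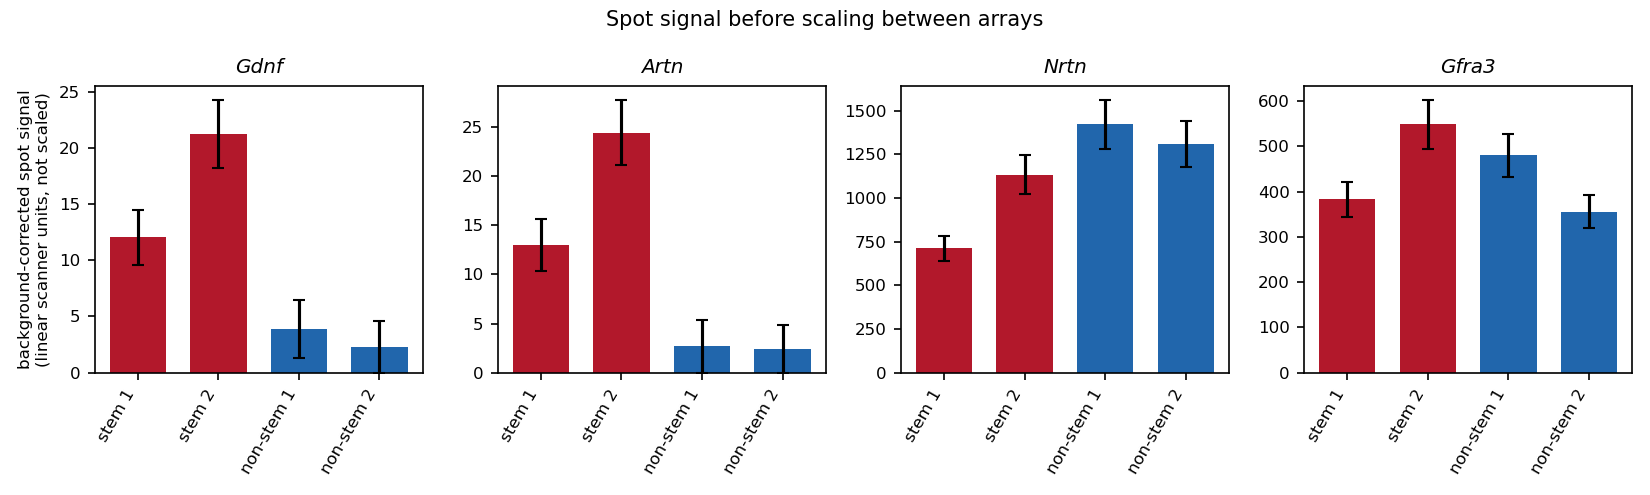
Background-corrected spot signal, in linear scanner units and before any scaling between arrays, of the Gdnf, Artn, Nrtn and Gfra3 probes on each array. Bars are single spots, red for stem cells and blue for non-stem cell epithelia, and error bars are the error the scanner software gave each spot. Gdnf and Artn are higher in both stem cell bars, Nrtn is lower in both, and the groups overlap for Gfra3.

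Ret encodes the kinase shared by the whole family. Its probe lies at chr6:118101791-118101850 (mm9, minus strand) and starts at base 7256 of NM_001080780. The spot signal was 16.9 ± 3.0 and 22.8 ± 3.3 for stem cells, with 37.9 ± 4.7 and 22.5 ± 3.4 for non-stem cell epithelia. The probe was thus detected in both groups, by a single dim spot on each array and with no second probe for Ret. Scaled, the stem cell replicates had log2 signals of -1.01 and -1.10 and the non-stem ones -1.15 and -1.66. The difference of 0.35 ± 0.21 (SE) did not pass (adjusted p = 0.26). Its 95% interval of -0.19 to 0.89 leaves room for a difference of nearly 1 on the log2 scale. Without non-stem cell epithelia replicate 2 the difference was 0.10, and without replicate 1 it was 0.60, so the estimate moves with the non-stem arrays.

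Gfra3, the co-receptor gene for artemin, was the co-receptor gene that passed the test. The spot signal was 383 ± 38 and 548 ± 55 for stem cells, with 480 ± 48 and 356 ± 36 for non-stem cell epithelia and thus overlap between the groups before scaling. Relative to the 75th percentile the log2 signals were 3.49 and 3.49 in stem cells against 2.51 and 2.32, and the groups separated. The log2 difference was 1.07 ± 0.16 (SE, adjusted p = 0.0069), or 2.10-fold higher in stem cells. Without non-stem cell epithelia replicate 2 it was 0.98 and did not pass (adjusted p = 0.068). In a fit without 1 array, here and below, the spread comes from the complete group alone and the single array is assumed to vary like it, so a lost call need not mean a smaller difference. With normexp it was 0.58 (adjusted p = 0.010).

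The co-receptor genes of GDNF and neurturin were detected on no array. Gfra1 had signals of 5.60, 2.28, 2.76 and 2.45 and Gfra2 of 2.23, 2.20, 2.66 and 6.57, listed as for Pspn. The highest Gfra1 spot was on stem cells replicate 1 and the highest Gfra2 spot on non-stem cell epithelia replicate 2, each on 1 array alone. Gdnf and its co-receptor Gfra1 were therefore not detected together in either group. Artn was detected, by a dim spot, on both stem cell arrays alone, while Gfra3 and Ret were detected on all 4 arrays.

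Ncam1 was detected with none of its 3 probes. The probe that starts at base 6856 of NM_001113204 had signals of 3.75, 8.23, 2.87 and 11.2, the probe at base 2012 of NM_010875 had 3.86, 2.36, 2.86 and 5.31, and the probe at base 4688 of NM_010875 had 2.80, 2.67, 4.91 and 4.32. The 11.2 on non-stem cell epithelia replicate 2 lies beside the lowest detected signal of that array, also 11.2. No order between the groups can be read from these spots.

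Because all values are relative to a scale set on the arrays themselves, the scale was also set on the 10 spike-in control probes, RNA added in fixed amounts, an alternative chosen after seeing the data. This moved the median log2 difference of all genes from -0.01 to -2.25, and 0.80% of calls were then higher in stem cells, against 46.2% with the main scale. On this scale Gdnf (1.09) and Artn (1.48) still had positive log2 differences, their bounds no longer exceeded 1, and Nrtn (-1.93), Ret (-1.90), Gfra3 (-1.18) and Gfra4 (-1.97) were lower. A change of scale shifts all genes of an array alike, so the order of the members relative to the median of all genes could not change. In sorted samples of this kind, fewer cells that carry a transcript and less transcript per cell cannot be told apart.

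**Figure D3:**
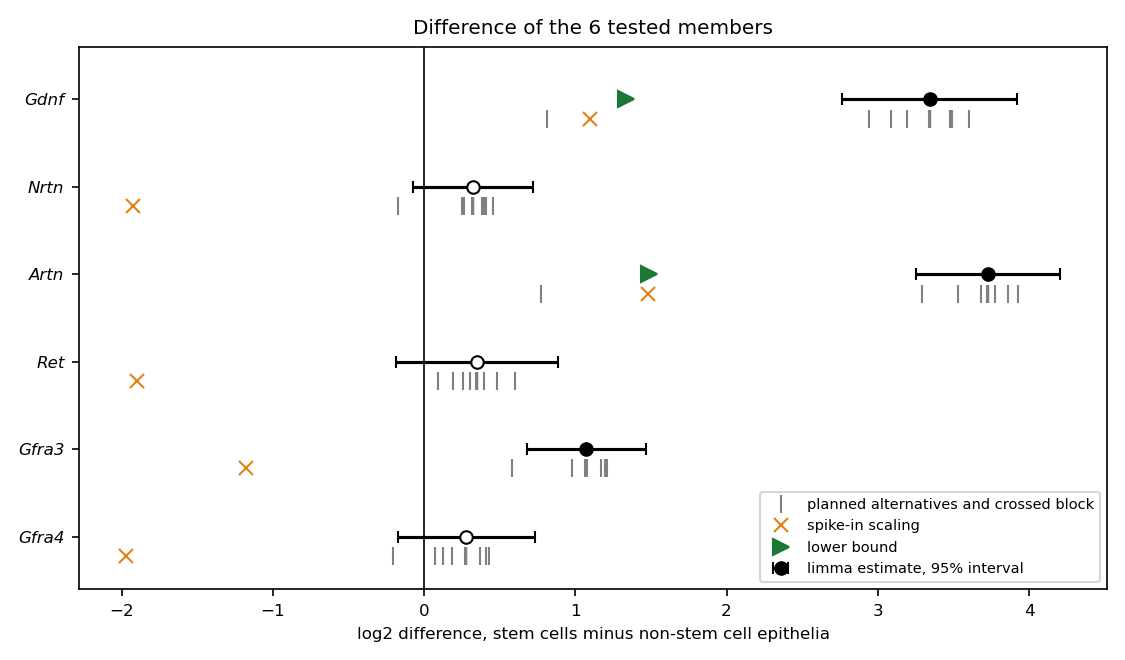
Log2 difference of stem cells minus non-stem cell epithelia for the 6 tested members, with 95% intervals from limma over 2 arrays per group and black points for members past the threshold. Grey ticks show the other settings, orange crosses the spike-in scale and green triangles the lower bounds of Gdnf (1.34) and Artn (1.49). The black points of Gdnf, Artn and Gfra3 lie above 0, and the intervals of Nrtn, Ret and Gfra4 include 0.

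Gdnf and Artn were the ligand genes that passed, so the 250 bases before their starts are shown (RefSeq, GRCm38.p6; 6 of the 10 members had an entry). For Gdnf the first of the 2 listed starts is given, at chr15:7809798-7810047 on the plus strand. For Artn the window is chr4:117929764-117930013 on the minus strand, printed 5′ to 3′ along the gene. The motifs searched on both strands were the TATA box, spelled TATAAA. The second was TGACG, a short form of the cyclic AMP response element. The last was the AP-1 site, spelled TGANTCA. Capitals mark their matches.
Gdnf: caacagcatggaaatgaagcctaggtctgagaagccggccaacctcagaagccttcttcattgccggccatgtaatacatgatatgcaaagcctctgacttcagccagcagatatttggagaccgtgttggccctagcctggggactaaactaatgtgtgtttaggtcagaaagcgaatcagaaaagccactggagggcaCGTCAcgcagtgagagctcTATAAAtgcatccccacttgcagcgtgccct
Artn: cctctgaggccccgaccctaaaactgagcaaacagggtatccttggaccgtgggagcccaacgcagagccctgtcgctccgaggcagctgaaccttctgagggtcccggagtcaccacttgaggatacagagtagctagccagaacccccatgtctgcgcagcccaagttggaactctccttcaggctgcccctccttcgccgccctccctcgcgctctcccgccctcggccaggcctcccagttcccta
The Gdnf window held TATAAA at position -31 and TGACG at position -50, each given as the first base of the match counted back from the start. The window before the second listed Gdnf start, chr15:7813477-7813726, held none of the 3 motifs. Of 32851 promoters of this length, 12.4% held TATAAA, 17.8% TGACG and 6.75% TGANTCA. The Artn window held none of the 3, and its GC content was 63.6% against 50.8% for Gdnf. CANNTG, the E-box, had 1 match in the Gdnf window, 2 in the Artn window and at least 1 in 66.2% of all promoters. These matches describe letters only.

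The other genes of the pathway were taken from 4 lists of 61 genes in all. Of these, 38 were tested, 9 were higher in stem cells and 5 lower, or 36.8% called against 31.1% of all genes. Robo2 and Myb, both called higher, entered the test only through the stem cell arrays, where they were brighter. Grb10 and Plcg1 entered only through the non-stem arrays and did not pass. The counts of genes higher, here and in the lists below, therefore carry no weight as a statement on the pathway. The median log2 difference over the 38 was 0.20, against -0.01 over all genes tested. A further 21 of the 61 were detected on no array.

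Among 25 adaptors and modulators of RET, 16 were tested, 2 were higher and 3 lower, with a median log2 difference of -0.19. Src, a kinase that docks on activated RET, rose by 1.28 ± 0.19 (SE, adjusted p = 0.0078), and Grb7, an adaptor, rose by 0.84 ± 0.16. Gdf15, a distant ligand that reaches RET through GFRAL, fell by 1.05 ± 0.15 (adjusted p = 0.0066) and was detected on 1 stem cell array. Lrig1, a membrane protein that restrains RET, fell by 0.63 ± 0.15 and Gas1, a protein related to the co-receptors, fell by 0.56 ± 0.15. With normexp the difference of Gdf15 was -0.11 (adjusted p = 0.56), that of Grb7 0.39 (adjusted p = 0.095) and that of Gas1 -0.20 (adjusted p = 0.28), and none of these passed. Gas1 also missed the threshold when the percentile was taken over detected probes (-0.43, adjusted p = 0.080), and the mean of its probes gave -1.29. For Lrig1 the mean of its probes gave -0.52 (adjusted p = 0.055). None of the 5 passed without non-stem cell epithelia replicate 1, or without replicate 2 (adjusted p of 0.052 to 0.19 in limma), although the differences stayed near their size, at 1.15 and 1.40 for Src, 0.90 and 0.79 for Grb7, and -1.09 and -0.998 for Gdf15. For Lrig1 they were -0.61 and -0.64, and for Gas1 -0.63 and -0.50. Without a filter on dim probes none of the 5 passed either. The core adaptor genes Shc1 (-0.14 ± 0.17), Grb2 (0.15 ± 0.16) and Frs2 (0.40 ± 0.16) did not pass. Gfral was detected on no array.

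Of 13 genes known as targets of RET signalling in the kidney bud, 10 were tested, 2 were higher and 2 lower, with a median log2 difference of 0.31. Etv4, a transcription factor induced by RET, had log2 signals of 1.71 and 1.73 for stem cells, with 0.13 and 0.69 for the others, a rise of 1.31 ± 0.22 (SE, adjusted p = 0.011). Its relative Etv5 had a difference of 0.34 ± 0.19 (adjusted p = 0.22). Myb, another transcription factor gene, was detected on the stem cell arrays alone, with a bound, not strict, of 2.85-fold above the others. Dusp6, a phosphatase that limits ERK signalling, had log2 signals of 4.12 and 4.25 for stem cells, with 5.59 and 5.33 for the others, and fell by 1.27 ± 0.17 (adjusted p = 0.0054). The targets that passed thus went both ways. Without a filter on dim probes Etv4 (adjusted p = 0.072 in limma) and Dusp6 (adjusted p = 0.061) did not pass. On the spike-in scale Etv4 was lower in stem cells (-0.94), and Dusp6 stayed lower (-3.52). Without non-stem cell epithelia replicate 1, Etv4 (1.03, adjusted p = 0.056) and Dusp6 (-1.14, adjusted p = 0.051) did not pass.

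Of 14 genes that control Gdnf expression in the developing kidney, 7 were tested, 3 were higher and 0 lower, with a median log2 difference of 0.27. Robo2, the receptor for SLIT2, was detected in stem cells (log2 signals of -0.29 and 0.45) but not in non-stem cell epithelia (-4.74 and -4.56). The bound on its rise, not strict, was 6.81-fold. Slit2, its ligand, had log2 signals of 0.82 and 0.61 against -2.13 and -1.90 and rose by 2.73 ± 0.17 (SE, adjusted p = 0.00060). In the kidney SLIT2 and ROBO2 limit where Gdnf is made. Foxc1, a transcription factor gene, rose by 0.66 ± 0.16, a call that was lost with normexp (0.20, adjusted p = 0.34), without a filter (adjusted p = 0.12), without either non-stem array (0.77 and 0.55, adjusted p = 0.085 and 0.16) and with the replicate numbers crossed as a block (adjusted p = 0.052). Eya1 and Six2, which help to turn Gdnf on in the kidney, were detected on all 4 arrays with differences of 0.27 ± 0.17 and -0.18 ± 0.16, and did not pass.

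Of 9 partners of NCAM1 and enzymes that add polysialic acid to it, 5 were tested, 2 were higher and 0 lower, with a median of 0.41. Fgfr1, a growth factor receptor that binds NCAM1, rose by 1.23 ± 0.20 (SE, adjusted p = 0.0098) and Ptk2, focal adhesion kinase, by 0.84 ± 0.15 (adjusted p = 0.013). Without non-stem cell epithelia replicate 2 neither passed, with differences of 1.06 (adjusted p = 0.084) and 0.78 (adjusted p = 0.097), and without replicate 1 Ptk2 did not pass (0.89, adjusted p = 0.069). Ptk2 also missed the threshold with normexp (0.34, adjusted p = 0.077) and as the mean of its probes (0.47, adjusted p = 0.062), and that mean was 0.81 for Fgfr1 (adjusted p = 0.028). The polysialyltransferase genes St8sia2 and St8sia4 were detected on no array, as was Ncam2.

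**Figure D4:**
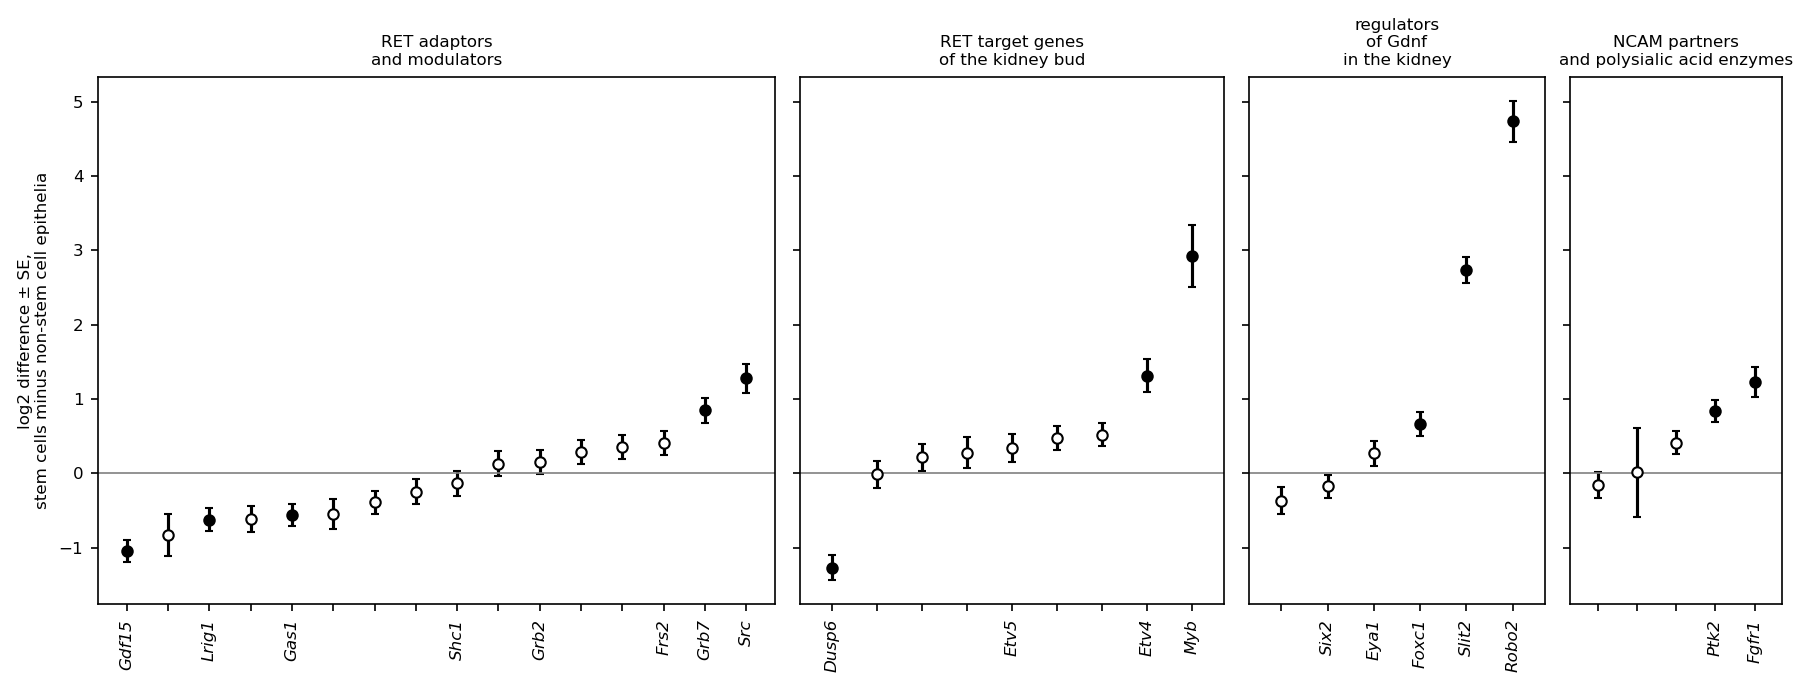
Log2 difference ± SE of stem cells minus non-stem cell epithelia for tested genes of 4 pathway lists, sorted within each list, with filled points for genes past the threshold and names for the genes described in the text; a few tested genes are not drawn. Robo2 and Myb were not detected in non-stem cell epithelia. Robo2 (4.73) and Slit2 (2.73) are the highest among the regulators of Gdnf, and Etv4 and Myb lie above 0 while Dusp6 lies below it among the RET targets.

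Nerve, Schwann and mesenchymal cells are known sources of GDNF family transcripts, so their markers were read beside the members. Of 15 nerve and Schwann cell markers 10 were detected on no array, among them S100b and Tubb3. Of the 5 tested, 1 was higher in stem cells and 1 lower, the latter being Sox10, also a gene of salivary acinar cells, which fell by 1.49 ± 0.21. The summed signal of the 5, in units of the array's 75th percentile, was 12.1 to 12.8 in stem cells and 21.0 to 23.9 in non-stem cell epithelia. Of 11 fibroblast and pericyte markers 8 were detected on no array, including Col1a1, Pdgfra, Pdgfrb and Lum. Of the 2 tested, Dcn rose by 2.15 ± 0.16 and Col1a2 had a difference of -0.49 ± 0.17 (adjusted p = 0.079), with a summed signal of 18.8 to 20.2 against 7.95 to 8.35. The part of such cells in the values of Gdnf and Artn was not tested.

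Markers of the epithelial cells themselves also differed. Of 7 tested acinar markers, 6 were lower in stem cells and 0 higher, with a median of -3.19 and a summed signal of 1273 to 1282 against 4991 to 5250. Of 6 duct markers, 6 were higher (1480 to 1507 against 758 to 771), and of 7 tested basal and myoepithelial markers 3 were higher and 0 lower (181 to 183 against 75.4 to 79.7). Of the duct calls, those of Krt8 (0.09, adjusted p = 0.64 in limma) and Krt18 (0.32, adjusted p = 0.13) were lost with normexp. Krt8 also missed the threshold with quantile normalization (0.48, adjusted p = 0.053) and as the mean of its probes (0.19, adjusted p = 0.38). Of 2 tested endothelial markers 0 passed, and Pecam1 had a difference of -0.50 ± 0.40 (adjusted p = 0.38). Of 3 tested white blood cell markers 1 was higher, Itgam (0.86 ± 0.20), while Ptprc, found on all white blood cells, was detected on no array. Their part in the members' values was not tested.

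The genes whose pattern over the 4 arrays lay nearest to that of Gdnf, by Euclidean distance of log2 signals centred per gene, were Spsb4 (distance 0.18), Maff (0.21), Casp4 (0.22), Rassf2 (0.23) and Ect2 (0.23). Their log2 differences were 3.15 to 3.43. On the non-stem arrays Spsb4, Rassf2 and Ect2 were detected on 0 arrays, Casp4 on 1 and Maff on 2. Except for Maff, these differences and distances thus rest in part on undetected spots, as for Gdnf. The genes nearest to Ret were Zfp658 (0.05), E2f3 (0.05), Gopc (0.05), Rab32 (0.06) and Drd4 (0.06), with differences of 0.33 to 0.38. With 4 arrays in 2 groups, such likeness describes little beyond the size of the difference between the groups.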

How the data were processed

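RNA of 4 sorted cell samples (0.5 ug each, Cy3, 1 colour) was hybridised to 1 slide, scanned on 1 day. Per the file headers, the deposited spot intensity was background-corrected by Agilent's scanner software (Feature Extraction 10.7.3.1; mm9 design); the submitters' processing notes name version 9.1, which was not resolved. The authors' deposited matrix is on a log2 scale with unstated centring. Their differences between arrays correlated at 1 with those used here, and column medians were -0.27, -0.55, -0.83 and -0.75.

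Outlier spots were dropped, and log2 signals were set relative to each array's 75th percentile over non-control spots and averaged per probe. A gene was represented by its brightest probe well above background on at least 2 arrays. Names came from RefSeq accessions (26582 probes) or the array. Groups were compared with limma 3.58.1 in R 4.3.3, two-sided, over 17362 genes (5.46 degrees of freedom), after tests on simulated data. A bound sets the bright group against the higher, per array, of the dim group's signal and the lowest signal detected. Spots above that lowest signal could be undetected too, so a bound is not strict. Array number limits precision.

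Members and lists were chosen with earlier results of these data known. Named genes were the members, up to 6 called genes per pathway list and 3 per marker list, fixed single markers, and the 5 nearest genes of Gdnf and Ret. Genes named beyond this were chosen after their values were seen. Alternatives are given in the closing section. Some genes of the lists are counted in the totals but not reported here by name.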

Additional observations from a re-analysis of the deposited data

How the results depend on the processing

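Gdnf and Artn passed in each of the 15 alternatives that tested them, but against undetected spots, so this says nothing about the size of the difference or its stability; with spike-in scaling their bounds were -0.91 and -0.76 on the log2 scale and give no fold. The filter on all 4 arrays did not test them, which left 1 member higher. Gfra3 was not called without a filter (1.07, adjusted p = 0.068). With spike-in scaling 4 members were lower, 135 genes were higher and 16681 lower, and of the pathway genes 1 was higher and 35 lower. Reversed values were -1.93 for Nrtn, -1.90 for Ret, -1.18 for Gfra3 and -1.97 for Gfra4 with spike-in scaling, and -0.17 for Nrtn and -0.21 for Gfra4 with normexp. Without a filter 820 genes were higher and 741 lower, and 4 and 1 of the pathway genes. With normexp 4601 genes were lower. Leaving out 1 array gave 593 to 3013 genes higher and 743 to 3583 lower, and 4 to 11 and 1 to 6 of the pathway genes. The share of calls that were higher was 46.2%, 29.2% with normexp and 59.3% with the percentile over detected probes, where the median of all genes moved to 0.13. The replicate block gave 2370 genes higher and 2915 lower and changed no member's call, but of the 14 pathway calls it lost 2, Gas1 (adjusted p = 0.083) and Lrig1 (adjusted p = 0.059). The deviations of same-numbered arrays correlated at -0.10, and with the numbers crossed, an alternative chosen after seeing the data, 2049 were higher and 2367 lower. All arrays share 1 slide, so no slide block was possible. The cause of these changes was not tested. The lowest detected signals were 5.68 to 12.9 by array. A spot above them could also be undetected, as with the third Gfra4 probe at 12.6 on non-stem cell epithelia replicate 2 (lowest detected 11.2).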
